A study of Sus scrofa with 6 samples.

Results

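The genes of fatty acid oxidation, the pathway that breaks fatty acids down to acetyl-CoA, were followed in mature pig oocytes from prepubertal and adult females. The members were 35 genes named by symbol, from the activation of fatty acids and the carnitine shuttle to the mitochondrial and peroxisomal cycles. A probe set was taken where the array's annotation gave it a single symbol and that symbol was a member. This found 43 probe sets for 32 genes, of 23999 probe sets that are not controls. CROT, ACAT1 and EHHADH had no probe set and were not analysed here. Of the 43 probe sets, 26, for 23 genes, were bright enough to be tested, out of 12000 tested in all.

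The prepubertal group held 3 arrays of oocytes from gilts, whose oocytes the labels call developmentally incompetent, and the adult group held 3 arrays of oocytes from sows, called competent. All oocytes came from follicles of 2 to 6 mm, were matured in culture for 42 to 44 h, were stripped of cumulus cells with hyaluronidase and vortexing, and had extruded the first polar body. RNA with a poly(A) tail was captured on beads, amplified in a pair of cycles and hybridized to Affymetrix porcine arrays. The labels call the arrays biological replicates without giving the number of oocytes or animals behind one, so a p-value here reflects only how far these arrays spread, and RNA per oocyte cannot be told apart from the number of oocytes.

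Fatty acids enter the pathway as acyl-CoA esters, made by acyl-CoA synthetases. Long chains cross into the mitochondrion as carnitine esters, and each turn of the mitochondrial cycle then removes an acetyl-CoA through a dehydrogenase, a hydratase, a second dehydrogenase and a thiolase. Peroxisomes run a parallel cycle, started by acyl-CoA oxidases, for very long and branched chains. The pig oocyte is known for its large store of lipid droplets, and mitochondrial fatty acid oxidation is used for energy during oocyte maturation in several mammals. The comparison asks whether mRNAs of these steps differ between prepubertal and adult oocytes.

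No fatty acid oxidation gene passed the test. Of 26 tested member probe sets, 0 had an adjusted p under 0.05 in limma, where 0.117% of all tested probe sets did, and the smallest adjusted p was 0.487. The count at an unadjusted p under 0.05 was also 0 of 26, against 10.9% of all tested probe sets. In 0 of 26 did the 3 prepubertal arrays lie wholly above or below the 3 adult arrays, against 16.3% of all. The median log2 difference, prepubertal minus adult, was 0.04 over the 23 genes by their brightest probe set (14 above 0 and 9 below) and −0.01 over all tested probe sets, of which 48.9% were above 0 and 51.1% below. Differences are on a log2 scale after adding 16 to each signal, which understates the fold of dim genes.

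These values come after quantile normalization, which gives all arrays one distribution, so each difference is relative to the other genes on the array. The deposited signals did not share a level: the 2% trimmed mean signal was 105 to 131 on prepubertal arrays and 121 to 160 on adult arrays, lower by 0.27 on the log2 scale in prepubertal oocytes (2-sided exact permutation test, p = 0.2, where 3 against 3 can give no p below 0.1). On deposited values the median difference of all tested probe sets was −0.20 and that of the 23 genes −0.14, with 4 above 0 and 19 below, beside 25.2% and 74.8% of all. Again 0 of 26 member probe sets passed, against 0.475% of all, and the smallest adjusted p in limma was 0.401. At an unadjusted p under 0.05 the count was 0 of 26 too, where 14.7% of all passed. The prepubertal signals of 3 member probe sets, for ACSL3, SLC25A20 and HADH, lay wholly below the adult ones there. That is 11.5% of 26, where 17.1% of all tested probe sets did so.

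**Figure D1:**
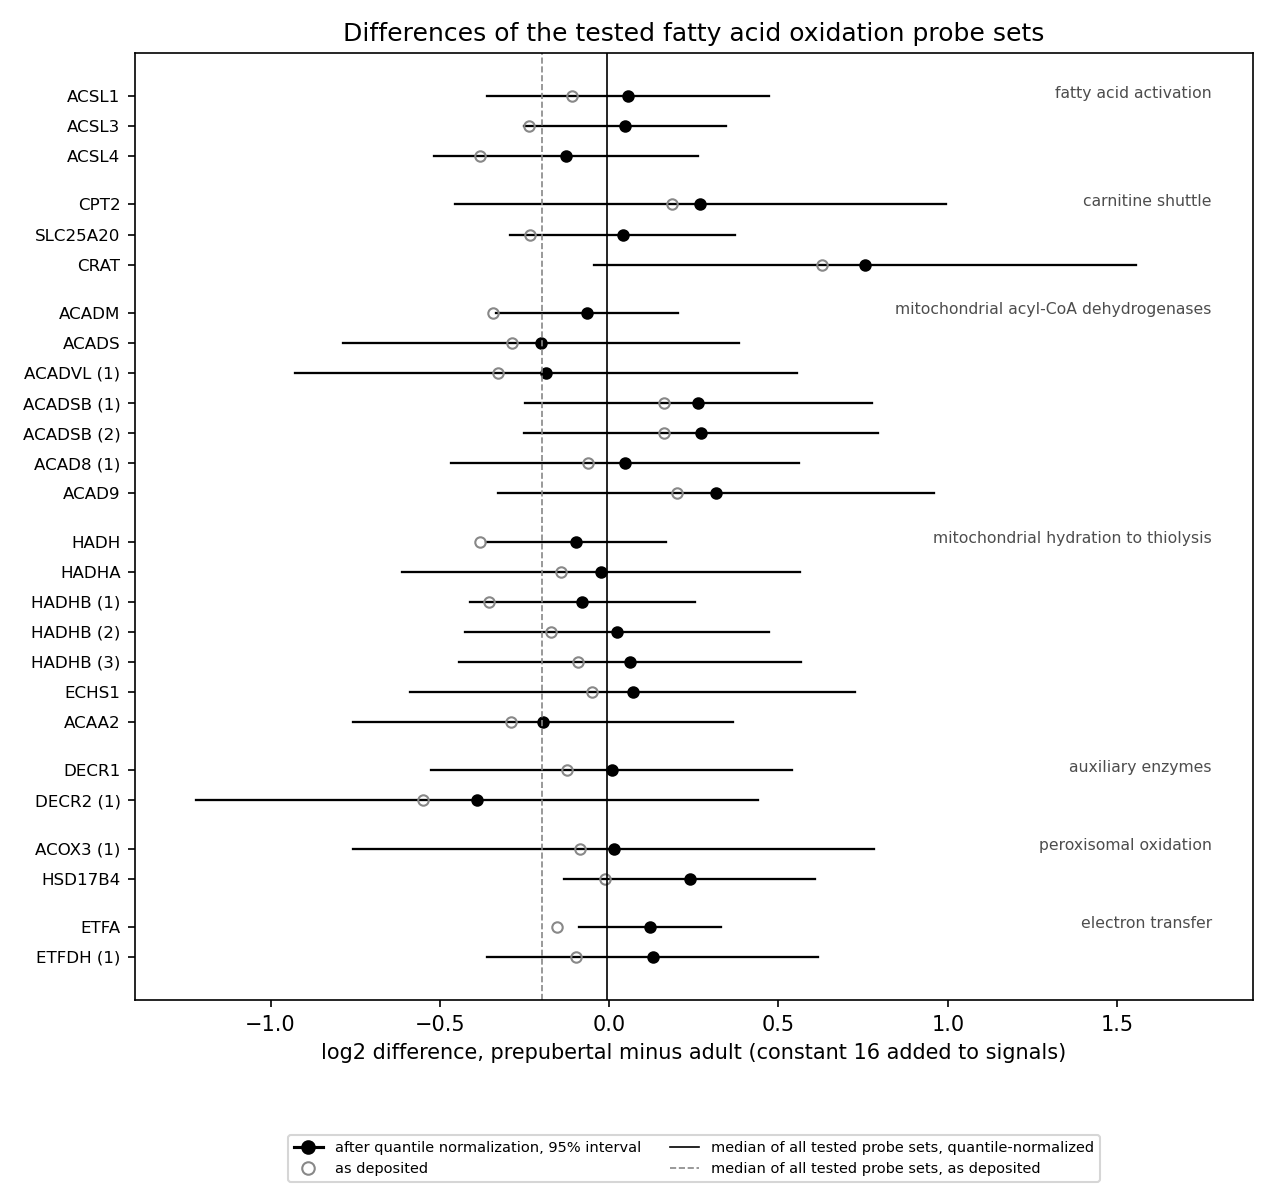
Log2 difference, prepubertal minus adult, for the 26 tested probe sets by pathway step (filled points, after quantile normalization, bars for 95% intervals; open circles, as deposited), with vertical lines at the median of all tested probe sets in each setting. Each of the 26 intervals takes in 0, and the open circles lie to the left of the filled ones.

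Precision followed brightness. The 9 probe sets with a mean signal of at least 100, a split set after the values were seen, had standard errors between 0.10 and 0.22. Their log2 differences lay between −0.13 and 0.24, and 7 of the 9 had a 95% interval inside a 1.5-fold change either way. The other 17 had standard errors between 0.19 and 0.38, and 5 of them had an interval that narrow. The SD of the signals, which the trend does not touch, was taken as a percent of the mean in the group where it was larger. It ran from 6.31 to 32.2 in the 9 and from 16.3 to 92.8 in the 17. Of all 26, 24 had intervals inside a 2-fold change, and the exceptions were CRAT and DECR2. All of these folds are of the signal plus the constant added before log2, not of the signal itself. For the 17 dimmer probe sets the bounds thus understate the fold in signal. An interval counted as narrow there may reach beyond a 1.5-fold or 2-fold change in signal.

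**Figure D2:**
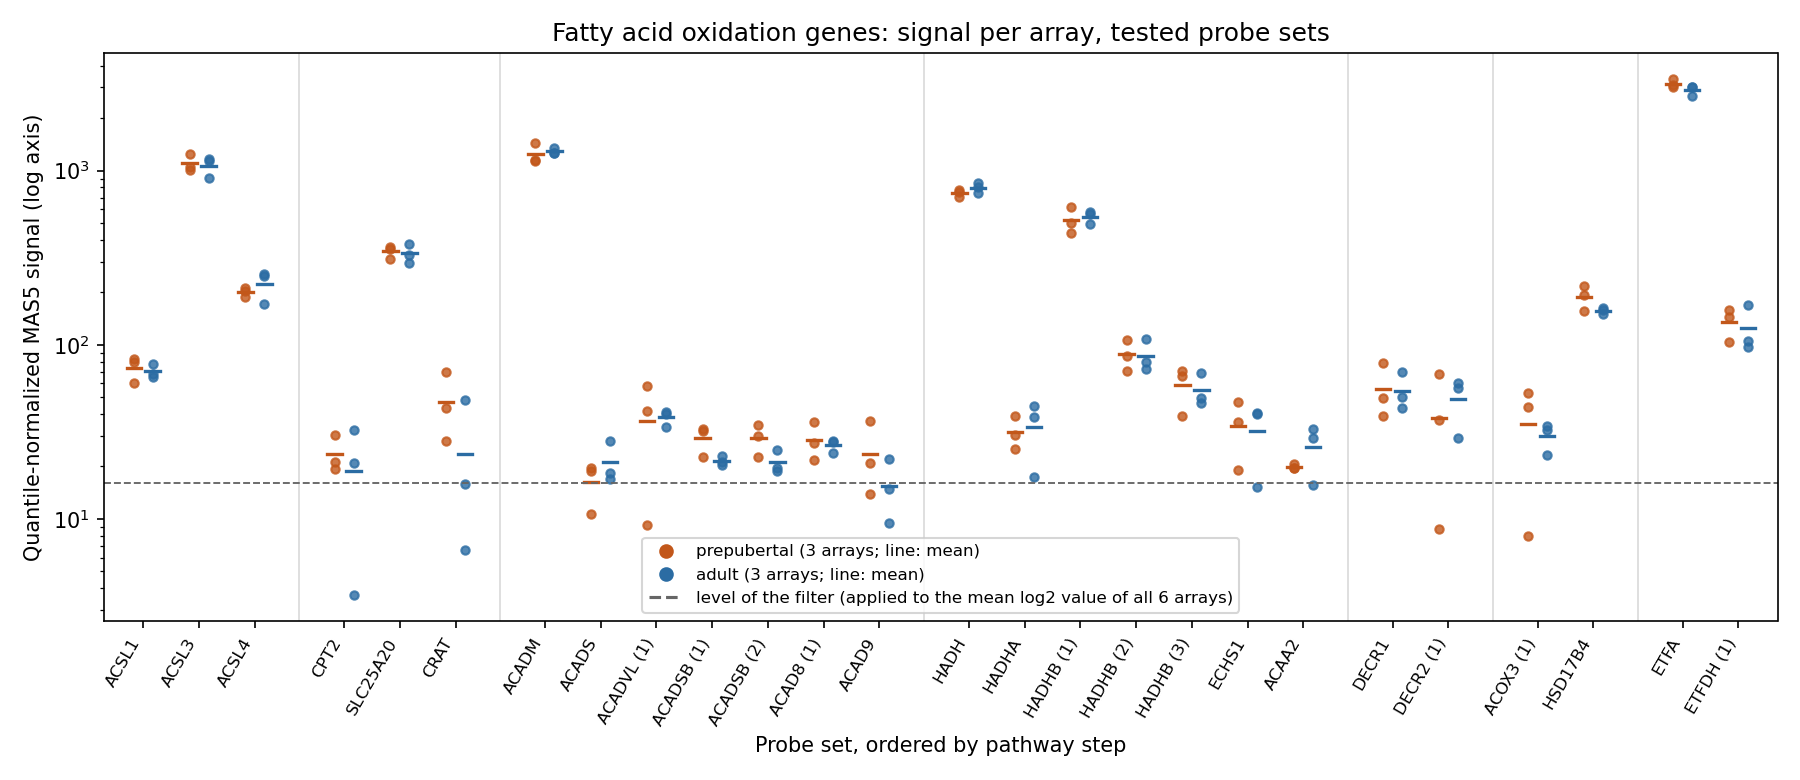
Quantile-normalized signal of the 26 tested probe sets on each array (log axis), prepubertal arrays left of adult arrays for each probe set, with lines at group means; a number in brackets tells a gene's probe sets apart, the brightest first. The arrays of both groups cover overlapping ranges in every probe set, and points within a group lie farther apart at low signal.

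Activation was measured by ACSL1, ACSL3 and ACSL4, long-chain acyl-CoA synthetases of which ACSL4 prefers arachidonate and other polyunsaturated chains. ACSL3, an enzyme of the endoplasmic reticulum and lipid droplets, had signals of 1044, 1012 and 1243 on prepubertal arrays 1, 2 and 3, against 901, 1170 and 1130 on adult arrays. The groups overlapped, with a log2 difference of 0.05 ± 0.14 (SE; limma adjusted p = 0.929). ACSL4 had 203, 212 and 188 on prepubertal arrays and 254, 171 and 248 on adult arrays. Its adult values spanned those of all prepubertal arrays, and the difference was −0.13 ± 0.18 (adjusted p = 0.841). ACSL1, with 82.3, 60.2 and 79.4 on prepubertal arrays and 65.3, 68.1 and 77.3 on adult arrays, differed by 0.05. As deposited, the differences were −0.11 for ACSL1, −0.24 for ACSL3 and −0.38 for ACSL4, with adjusted p of at least 0.488 in limma.

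The carnitine shuttle held the member with the largest difference, CRAT, which encodes carnitine acetyltransferase, the enzyme that moves acetyl groups between CoA and carnitine. CRAT had signals of 69.8, 43.3 and 27.9 on prepubertal arrays and 48.3, 6.65 and 15.8 on adult arrays. Adult array 1 lay above prepubertal arrays 2 and 3, so the groups overlapped. The log2 difference was 0.76 ± 0.37 (95% interval −0.04 to 1.56; unadjusted p = 0.062, adjusted p = 0.487), and 2.17% of all tested probe sets had a larger one. Without adult array 1 it was 1.18 and without adult array 2 it was 0.42.

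CPT2, the carnitine palmitoyltransferase of the inner mitochondrial membrane that remakes acyl-CoA inside, had 21.2, 30.4 and 19.4 on prepubertal arrays and 20.8, 32.2 and 3.64 on adult arrays. Adult array 3 alone stood apart. The difference was 0.27 ± 0.33 (adjusted p = 0.815), and without adult array 3 it was −0.10. SLC25A20, the carrier that exchanges acylcarnitine for carnitine across the inner membrane, had 311, 355 and 364 in prepubertal and 327, 381 and 295 in adult oocytes. Its difference was 0.04 ± 0.15 (adjusted p = 0.95), with a 95% interval of −0.29 to 0.37, and −0.23 as deposited.

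CPT1A and CPT1B encode the carnitine palmitoyltransferases of the outer membrane, the regulated entry step, and both probe sets lay below the tested range. CPT1A had signals of 2.64, 7.28 and 3.08 in prepubertal and 4.98, 3.21 and 3.28 in adult oocytes. CPT1B had 1.21, 1.64 and 3.34 in prepubertal and 3.43, 1.59 and 1.92 in adult oocytes. All of these signals lay below the level of the filter, and the groups overlapped. In the fit without the filter the log2 differences were 0.03 ± 0.15 for CPT1A and −0.02 ± 0.11 for CPT1B (adjusted p = 0.979 and 0.981).

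The first mitochondrial step is taken by acyl-CoA dehydrogenases, each with its own range of chain lengths. The medium-chain enzyme ACADM had 1435, 1149 and 1131 in prepubertal and 1348, 1257 and 1262 in adult oocytes. The difference was −0.07 ± 0.12 (95% interval −0.33 to 0.20; adjusted p = 0.886). The groups overlapped, and prepubertal array 1 held the highest value of the 6. The short-chain enzyme ACADS (−0.20 ± 0.27) and the very-long-chain enzyme ACADVL (−0.19 ± 0.34) also had values below 0, with adjusted p of 0.833 and 0.882. For ACADVL, prepubertal array 1 read 9.26 while prepubertal arrays 2 and 3 read 41.6 and 58.1, against 33.8, 39.8 and 41.3 in adult oocytes. Without prepubertal array 1 the difference of ACADVL was 0.27.

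ACADSB, a short/branched-chain dehydrogenase of isoleucine breakdown, was measured by a pair of probe sets with nearly the same result. The first read 32.9, 32.1 and 22.8 in prepubertal and 20.4, 21.2 and 22.9 in adult oocytes, and the second 22.7, 29.9 and 34.5 in prepubertal and 19.7, 18.9 and 25.0 in adult oocytes. In each, 2 prepubertal arrays lay above all adult arrays and the third did not. The log2 differences were 0.26 ± 0.24 and 0.27 ± 0.24 (adjusted p = 0.714 and 0.711), and both were 0.16 as deposited. ACAD8, which acts in valine breakdown, differed by 0.05 ± 0.24, and ACAD9, known mainly for its part in assembling respiratory complex I, by 0.32 ± 0.30. Their adjusted p were 0.962 and 0.725.

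The long-chain dehydrogenase ACADL was below the tested range, but its groups did not overlap: it had signals of 15.8, 15.1 and 11.7 in prepubertal and 2.5, 3.0 and 1.8 in adult oocytes. It was singled out after its values were seen. In a fit without the filter on low values the log2 difference was 0.71 ± 0.20 (unadjusted p = 0.00386, adjusted p = 0.378), where 7.85% of all probe sets had an unadjusted p under 0.05 and 0.00833% passed after adjustment. All 6 signals were under 16.1, the level of the filter, so no fold is given.

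The later mitochondrial steps had values slightly below 0 in 4 of 5 genes. HADH, the short-chain 3-hydroxyacyl-CoA dehydrogenase, had 770, 755 and 706 in prepubertal and 800, 847 and 746 in adult oocytes. Its groups overlapped only through adult array 3. The difference was −0.10 ± 0.12 (95% interval −0.36 to 0.17; adjusted p = 0.815), and −0.38 as deposited (adjusted p = 0.401). ACAA2, the mitochondrial thiolase that releases acetyl-CoA, had 20.5, 19.7 and 19.6 in prepubertal and 32.9, 29.0 and 15.7 in adult oocytes. Prepubertal arrays were close together and adult arrays 1 and 2 lay above them, for a difference of −0.20 ± 0.26 (adjusted p = 0.83).

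HADHA and HADHB encode the subunits of the trifunctional protein, which carries out the later steps on long chains. HADHA averaged 31.5 ± 7.03 (SD, n = 3) in prepubertal and 33.5 ± 14.2 in adult oocytes and differed by −0.02 ± 0.27. HADHB had 3 tested probe sets. The brightest had 518 ± 92.0 in prepubertal and 544 ± 43.1 in adult oocytes and differed by −0.08 ± 0.15, and the others by 0.02 and 0.06 (adjusted p from 0.889 to 0.981). ECHS1, the short-chain enoyl-CoA hydratase, had 46.8, 19.1 and 35.9 in prepubertal and 40.3, 15.3 and 40.0 in adult oocytes. Array 2 was the lowest of each group, and the difference was 0.07 ± 0.30 (adjusted p = 0.957).

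Auxiliary enzymes bring unsaturated chains into a form the cycle accepts. DECR1, the mitochondrial 2,4-dienoyl-CoA reductase, had 78.5, 39.0 and 49.5 in prepubertal and 43.3, 69.7 and 50.0 in adult oocytes, and differed by 0.01 ± 0.25 (adjusted p = 0.995). DECR2, the peroxisomal reductase, had 8.73, 68.3 and 36.8 in prepubertal and 56.1, 60.1 and 29.2 in adult oocytes. Prepubertal array 1 stood far below the rest. The log2 difference was −0.39 ± 0.38 (adjusted p = 0.738), and 0.09 without that array. The isomerase genes ECI1 and ECI2 were below the tested range, with means between 4.42 and 17.5 in the groups. The brighter ECI2 probe set had 11.1, 23.4 and 18.0 in prepubertal and 0.62, 0.71 and 17.8 in adult oocytes, so the groups overlapped. In the limma fit without the filter its log2 difference was 0.65 ± 0.32 (adjusted p = 0.663). The other ECI2 probe set differed by 0.26 and ECI1 by −0.04.

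In the peroxisome, HSD17B4 encodes the bifunctional protein that hydrates and dehydrogenates very-long-chain and branched intermediates. It had signals of 193, 156 and 218 in prepubertal and 150, 157 and 161 in adult oocytes. Prepubertal arrays 1 and 3 lay above all adult arrays and array 2 within them. The difference was 0.24 ± 0.17 (95% interval −0.13 to 0.61; adjusted p = 0.642), and −0.01 as deposited. ACOX3, an oxidase of branched chains, had 52.9, 43.8 and 7.94 in prepubertal and 23.3, 32.6 and 34.3 in adult oocytes, so the prepubertal values lay on both sides of the adult ones. Its difference was 0.01 ± 0.35 (adjusted p = 0.993).

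ACAA1, the peroxisomal thiolase, and ACOX2, an oxidase of bile acid intermediates, were below the tested range. ACAA1 had 8.72, 13.1 and 4.83 in prepubertal and 19.2, 26.6 and 13.4 in adult oocytes. These groups did not overlap, with a log2 difference of −0.52 ± 0.28 in the fit without the filter (adjusted p = 0.693). In 1 of the ACOX2 probe sets, with signals under 5 on every array, the prepubertal values were all above the adult ones, with a difference of 0.15 (adjusted p = 0.789). With ACADL these were 3 of the 17 untested member probe sets, where 10.1% of all untested probe sets had groups that did not overlap.

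Electrons from the mitochondrial dehydrogenases pass to the electron transfer flavoprotein, made of ETFA and ETFB, and then through ETFDH to ubiquinone. ETFA had signals of 3361, 3007 and 3097 in prepubertal and 3016, 3007 and 2688 in adult oocytes. It had the smallest standard error of the members, and only prepubertal array 2 lay within the adult range. The log2 difference was 0.12 ± 0.10 (95% interval −0.09 to 0.33; adjusted p = 0.68), and −0.15 as deposited. ETFDH had 144, 104 and 158 in prepubertal and 170, 97.3 and 105 in adult oocytes, and differed by 0.13 ± 0.22 (adjusted p = 0.88), or −0.10 as deposited. ETFB was below the tested range, at 7.76 ± 3.02 in prepubertal and 10.6 ± 5.91 in adult oocytes. So were both probe sets of PPARA, the nuclear receptor that induces genes of this pathway in liver and muscle, with signals between 0.804 and 12.9. The 5 remaining untested probe sets were second ones for ACADVL, ACAD8, DECR2, ACOX3 and ETFDH, with signals between 1.21 and 44.9 and groups that overlapped.

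**Figure D3:**
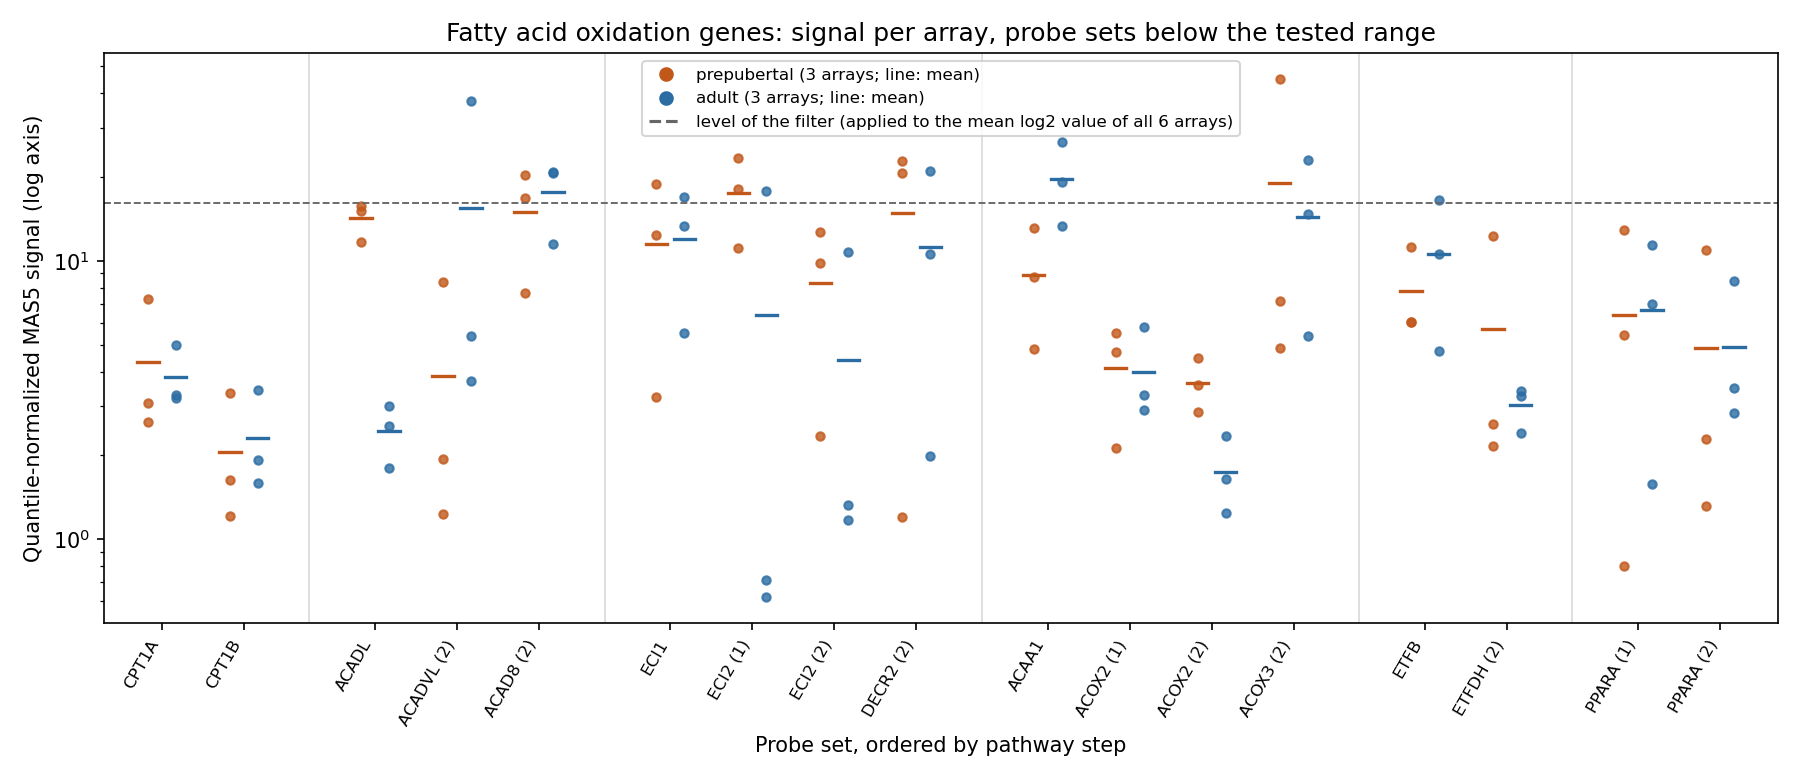
Quantile-normalized signal on each array (log axis) of the 17 member probe sets below the tested range, prepubertal arrays left of adult arrays, with lines at group means and a dashed line at the level of the filter. ACADL and ACAA1 keep the groups apart in opposite directions, and CPT1A, CPT1B and PPARA lie low in both groups.

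Set side by side, the steps showed small medians of differing sign. After quantile normalization the 3 tested genes of the carnitine shuttle had a median log2 difference of 0.27, with 3 above 0. The 11 tested genes of the mitochondrial acyl-CoA dehydrogenases and later steps together had −0.07, with 4 above 0 and 7 below. Those above 0 were ECHS1, ACAD9, known mainly for complex I assembly, and ACADSB and ACAD8, which act in amino acid breakdown. HADHB was counted by its brightest probe set, and its others lay at 0.02 and 0.06. ACADL, not tested, lay at 0.71 without the filter, where the dehydrogenases had 4 above 0 and 3 below. With arrays scaled to a common trimmed mean, the mitochondrial genes had 5 above 0 and 6 below. The 2 tested genes of peroxisomal oxidation had 0.13, with both above 0. This median leaves out the peroxisomal reductase DECR2, which was counted with the auxiliary enzymes and lay at −0.39. As deposited the medians of the carnitine shuttle, the mitochondrial steps and peroxisomal oxidation were 0.19, −0.29 and −0.05, beside −0.20 for all tested probe sets. With 2 or 3 genes behind a median, the order of the steps was not tested. The carnitine shuttle was at −0.04 without adult array 3, at 0.09 with a constant of 64 and at 0.69 with a constant of 1.

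**Figure D4:**
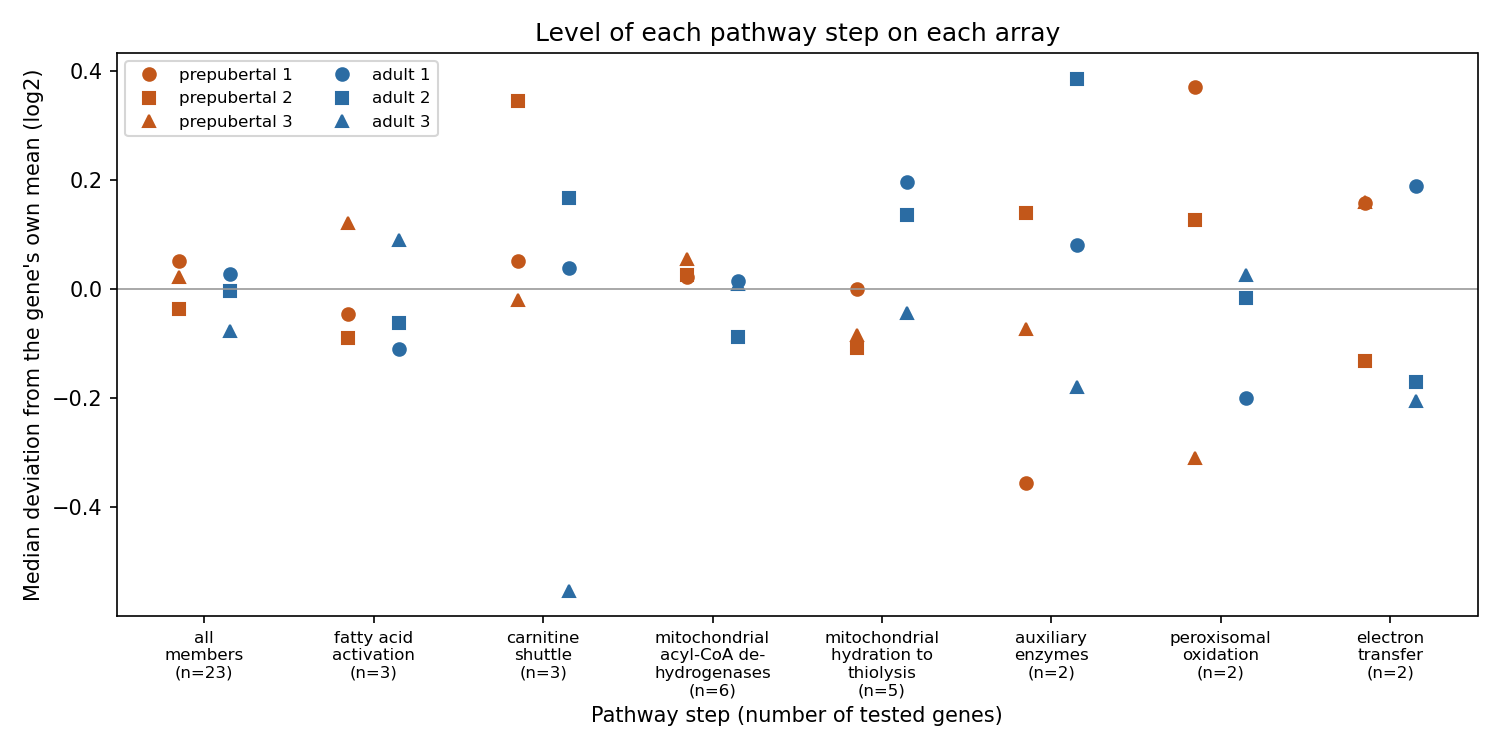
Median over the tested genes of each step of the log2 signal minus the gene's own mean over the 6 arrays, one point per array, prepubertal arrays left of adult arrays. Over all 23 genes the arrays lie between −0.08 and 0.05, while adult array 3 is low in the carnitine shuttle and prepubertal array 1 is low in the auxiliary enzymes and high in peroxisomal oxidation.

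The per-array medians over all 23 genes were 0.05, −0.04 and 0.02 on prepubertal arrays and 0.03, −0.00 and −0.08 on adult arrays, so the groups overlapped. The carnitine shuttle ranged from −0.55 on adult array 3 to 0.34 on prepubertal array 2. Peroxisomal oxidation ranged from 0.37 on prepubertal array 1 to −0.31 on prepubertal array 3. The median of the 6 dehydrogenases was 0.02, 0.03 and 0.05 on prepubertal arrays and 0.01, −0.09 and 0.01 on adult arrays, which is a description with no test. Single dehydrogenases varied more, ACADVL from −1.01 to 0.55 and ACAD9 from −0.45 to 0.60.

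**Figure D5:**
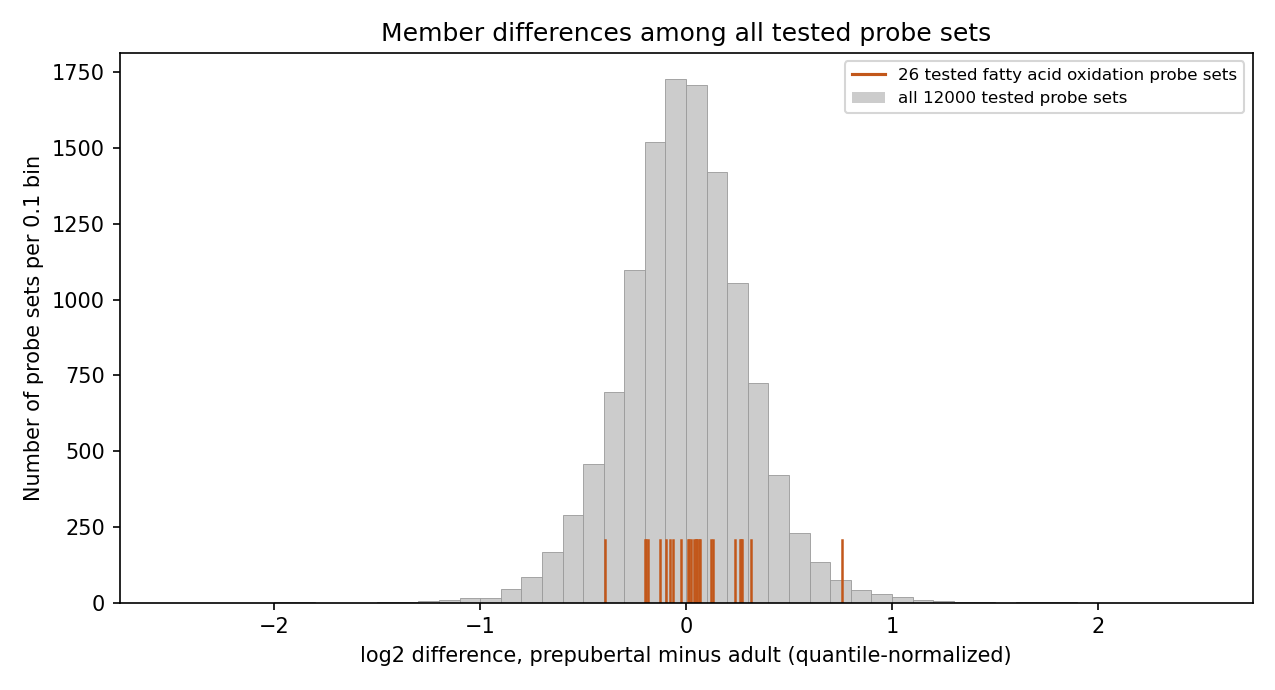
Number of tested probe sets by log2 difference, prepubertal minus adult, after quantile normalization (grey bars, all 12000), with a tick for each of the 26 member probe sets. The members lie within the bulk between −0.39 and 0.32, apart from CRAT at 0.76.

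Genes around the pathway were read from 6 lists that do not contain the members. Of 152 listed genes 64 were tested, and 0 passed an adjusted p of 0.05 in limma. An unadjusted p under 0.05 was found for 2 genes with a higher and 3 with a lower signal, 7.81% of the 64, where 10.9% of all tested probe sets had one, and 32 differences lay above 0 and 32 below. The list medians lay between −0.05 and 0.05. LONP2, the protease of the peroxisomal matrix, had the lowest p: its signals were 2049, 2305 and 2198 in prepubertal and 3030, 2909 and 2597 in adult oocytes. The groups did not overlap, and the log2 difference was −0.38 ± 0.10 (unadjusted p = 0.00298, adjusted p = 0.192). ABCD3, a transporter of acyl-CoA into peroxisomes, had 2797, 2865 and 3116 in prepubertal and 2361, 2343 and 2580 in adult oocytes, a difference of 0.27 ± 0.10 (adjusted p = 0.338). A second ABCD3 probe set gave 0.28 and the third −0.09, and the brightest gave 0.00 as deposited.

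Among routes for propionate, ketone bodies and branched chains (13 tested), HSD17B10, a mitochondrial dehydrogenase of isoleucine breakdown, had 27.0, 12.7 and 24.0 in prepubertal and 58.3, 48.4 and 30.2 in adult oocytes. The difference was −0.72 ± 0.26 (adjusted p = 0.348), without overlap. AUH, of leucine breakdown, followed at 0.28 (adjusted p = 0.627). A second AUH probe set gave 0.38 (adjusted p = 0.453), and the brightest gave 0.01 as deposited. Of 18 tested regulators, PRKAB1, a subunit of the AMP-activated kinase, had 941, 974 and 967 in prepubertal and 1224, 1195 and 1063 in adult oocytes (−0.27 ± 0.11, adjusted p = 0.427). NCOA1, a coactivator of nuclear receptors, differed by 0.28 ± 0.12 (adjusted p = 0.455), while its 5 other tested probe sets lay between −0.24 and 0.20, and the brightest gave −0.01 as deposited.

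In the list of other acyl-CoA synthetases, thioesterases and carnitine supply (9 tested), the thioesterase ACOT9 differed by 0.36 (adjusted p = 0.468). SLC22A5, the carnitine transporter of the plasma membrane, had 49.1, 50.7 and 38.0 in prepubertal and 35.8, 28.3 and 21.9 in adult oocytes. Its groups did not overlap, with a difference of 0.48 ± 0.23 (adjusted p = 0.473), and 0.35 as deposited. For uptake and binding (8 tested), FABP3, a cytosolic fatty acid carrier, differed by 0.18 and ACBD6, an acyl-CoA binding protein, by −0.44 (adjusted p = 0.595 for both). As deposited FABP3 was at −0.10 and ACBD6 at −0.56. The 2 tested lipolysis genes were PNPLA2, the lipase that starts triglyceride breakdown, at −0.14, and the lysosomal lipase LIPA at 0.06, by their brightest probe sets. A second probe set gave 0.26 for PNPLA2 and 0.35 for LIPA, and as deposited the brightest gave −0.34 and −0.21.

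Markers were read to check the labelled cell type. The oocyte list summed to signals of 19507 to 20209 on prepubertal and 18604 to 19920 on adult arrays. It was led by KPNA7 (14118 ± 475 in both groups, SD, n = 3, with values set by rank under quantile normalization) and ZP4 (2821 ± 199 in prepubertal, 2420 ± 360 in adult oocytes). KPNA7 made up most of the oocyte sums, so their overlap is largely set by the normalization. Single oocyte markers differed either way on the log2 scale: BMP15 by 0.42, ZP2 by 0.35, POU5F1 by −0.36 and GDF9 by −0.31. The cumulus and granulosa list, with 18 of 22 genes on the array, summed to 445 to 555 in prepubertal and 461 to 522 in adult oocytes. Its brightest genes were INHBA (111 ± 18.4 in prepubertal, 116 ± 6.45 in adult) and FST (101 ± 7.65 in prepubertal, 117 ± 5.54 in adult). Of the 18, 7 were bright enough to be tested, which besides these were VCAN, NR5A1, INHA, HSD3B1 and LHCGR. VCAN had means of 52.7 in prepubertal and 46.2 in adult oocytes, and NR5A1 had 43.2 and 55.9. CYP19A1, FSHR and STAR were below the tested range, under a mean of 10 in both groups. Theca and stroma markers, led by COL1A2 and COL3A1, summed to 78.2 to 116 in prepubertal and 90.8 to 136 in adult oocytes. Blood and immune markers, led by HBB (228 ± 116 in prepubertal, 265 ± 68.7 in adult) and PTPRC, summed to 196 to 391 in prepubertal and 271 to 405 in adult oocytes. Endothelial markers, led by PECAM1 and TEK, summed to 96.6 to 137 in prepubertal and 93.4 to 134 in adult oocytes. The ranges overlapped in each list and 0 markers passed the test in limma. The ratio of the 3′ to the middle probe set of the control transcript EF1A, a sign of RNA length, was 6.05, 8.30 and 8.21 on prepubertal and 4.5, 7.12 and 8.15 on adult arrays (exact permutation p = 0.5, 2-sided).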

How the data were processed

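The submitters' processing notes name MAS5 for the deposited signal intensity values, which are linear; for its version and scaling target, not given in the sources used here, no value was assumed. Every value column matched a sample (0 unmatched), and 124 control probe sets of 24123 were left out. Because the deposited levels differed, arrays were quantile-normalized before 16 was added and log2 taken. The filter kept probe sets with a mean log2 value no lower than the median of all. Prepubertal were compared with adult arrays by lmFit and eBayes, with a trend on intensity, of limma 3.58.1 (R 4.3.3), and p-values were adjusted over 12000 probe sets by Benjamini-Hochberg; every p-value of a gene is from limma. The platform annotation gave 10069 probe sets a single symbol, 198 several and 13732 none listed. By Entrez identifier 9961 were found in RefSeq's gene table, and its symbol was used unless it was a placeholder beginning with LOC. The brightest probe set stood for a gene. No genome build is named for the arrays, so no positions are given.

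Members and lists were chosen with earlier results of these data known. Named by rule were member probe sets past the threshold, at an unadjusted p under 0.05 or without overlap, and the 2 with the lowest p in each step. Of other lists the 2 genes with the lowest p were named, and of markers the 2 brightest, with further oocyte, cumulus and granulosa genes added. Values of further members were added to account for each. Alternatives changed the scaling, the constant, the filter, the variance model, the weights of arrays and a block for replicate numbers, or left out an array. The number of arrays limits the precision.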

Additional observations from a re-analysis of the deposited data

How the results depend on the processing

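The count of member probe sets past an adjusted p of 0.05 was 0 under every alternative run (16 settings), with a smallest adjusted p among the named members of 0.297, for CRAT with the replicate number as a block. At an unadjusted p under 0.05, CRAT passed with a common trimmed mean, with the replicate block, without prepubertal replicate 3 and without adult replicate 1, DECR2 without prepubertal replicate 2, and ACADL without a filter (adjusted p 0.297 to 0.553). Deviations from the group mean correlated at 0.0179 to 0.082 between prepubertal and adult arrays with the same number. For 2 of the 3 prepubertal arrays, the adult array with the same number gave the highest correlation. With 3 arrays per group these values cannot tell whether arrays with the same number were processed together. The number of all probe sets called moved widely: 57 as deposited (4 higher, 53 lower, against 3 and 11 after quantile normalization), 5 with median centring, 2 with a constant of 1, 28 with a constant of 64, 2 without a filter, 55 with a filter at the 75th percentile, 0 without the intensity trend (539 higher and 634 lower at an unadjusted p under 0.05), 84 with array weights and 33 with the replicate block. It was 0 in limma without adult replicate 2 (436 higher and 492 lower at an unadjusted p under 0.05) and 202 without prepubertal replicate 1, and lay between 0 and 202 when each array was left out. Other pathway genes called ranged from 0 to 1, the 1 being FOXO1 without prepubertal replicate 1 (log2 difference 0.92, adjusted p = 0.0496, against 0.50 and 0.575 with all arrays).

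The member median was −0.14 as deposited and −0.030 to 0.073 when each array was left out. Deposited values gave step medians of −0.24 for activation, −0.18 for the dehydrogenases, −0.29 for the later mitochondrial steps and −0.13 for electron transfer, and median centring gave −0.084, −0.075 and −0.20 for the first 3 of these; the shift of all genes (−0.20 and −0.07) moves with them. The carnitine shuttle median was 0.69 with a constant of 1, 0.093 with a constant of 64, 0.040 both without a filter and with the stricter one, 0.16 with array weights, and −0.042 to 0.42 when each array was left out. The dehydrogenase median was 0.047 without a filter, −0.065 with the stricter filter, 0.039 with array weights and −0.041 to 0.17 when each array was left out. The stricter filter left no auxiliary gene. Of 135 alternative medians, 15 moved by at least the spread between arrays and 120 by less. Among the 120 were the carnitine shuttle medians with a constant of 64, without a filter, with the stricter filter and with array weights.

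Of 216 alternative values of the named members, 22 changed sign, and 0 passed the threshold; the cause was not tested. As deposited these were ACOX3 (−0.086), ACSL3 (−0.24), DECR1 (−0.12), ETFA (−0.15), ETFDH (−0.10) and HSD17B4 (−0.012). Median centring turned ACSL3 (−0.084) and DECR1 (−0.0047), a constant of 1 turned ACOX3 (−0.14), and array weights turned ACOX3 (−0.18) and DECR1 (−0.10). Over all 26 tested member probe sets, leaving out single arrays turned the sign of 15 in at least 1 case. Among the named members it gave −0.27 to 0.49 for ACOX3, −0.069 to 0.12 for ACSL3, −0.10 to 0.55 for CPT2, −0.21 to 0.18 for DECR1, −0.80 to 0.086 for DECR2 and −0.0054 to 0.35 for ETFDH.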
